A study of Mus musculus with 2 samples.

Results

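The genes described here encode the subunits of the Polycomb repressive complexes PRC1 and PRC2, of the trithorax-related COMPASS complexes, and the demethylases of lysine 27 of histone H3. The members were a list of 44 gene symbols, matched to Ensembl gene identifiers through GENCODE release M21, and all 44 had a row in both count files, among 43629 gene rows in all. The samples were 2 libraries of polyadenylated RNA from mouse embryonic stem (ES) cells, replicates A and B, which form the only group. Both carry a knockout of Dgcr8 made with paired CRISPR/Cas9 cuts, on a 129/Ola background at passage 7, and Dgcr8 encodes the RNA-binding partner of Drosha in microRNA processing. Both were prepared with a TruSeq RNA kit by a protocol labelled reverse-stranded. The labels give blastocyst as the tissue, do not explain the codes KO2 and d5 in the sample titles, and do not state if the replicates were grown as separate cultures. Differences between A and B can thus be technical. A wild-type library was not analysed here, and nothing below measures an effect of the knockout.

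PRC2 places methyl groups on lysine 27 of histone H3, a mark of silent developmental genes, and PRC1 attaches ubiquitin to histone H2A and compacts chromatin. COMPASS complexes methylate lysine 4 of histone H3 at promoters and enhancers of active genes, and act against Polycomb silencing. Most subunits of these complexes come from small gene families, so that a cell can build different versions of a complex by its choice of paralog, and in ES cells both kinds of complex meet at the CpG-rich promoters of developmental genes.

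The libraries held 27872396 counts in A and 30327146 in B. The labelled cell type was checked against 8 ES cell markers. All 8 lay above 1 CPM (counts per 1000000 counts of the library) in A and in B, led by Pou5f1 (1805 CPM in A, 1542 in B), Tdgf1 and Zfp42. They summed to 5507 CPM in A and 4894 in B. Of markers of other cells, 4 of 6 fibroblast, 4 of 8 endoderm and 3 of 6 trophoblast genes reached 1 CPM in A and in B. The endoderm markers, led by Lama1, Col4a1 and Cubn, summed to 78.8 CPM in A and 224 in B. Lama1 alone lay at 47.3 and 142 CPM, so that it made up much of both sums. Gata4 went the other way, at 7.10 CPM in A and 4.91 in B. The trophoblast markers, led by Tfap2c, Esx1 and Krt7, summed to 111 and 40.9 CPM, and the fibroblast markers, led by Thy1, Pdgfrb and Twist1, to 47.9 and 30.1 CPM. Sox17, Foxa2, Elf5, Gata3, Col1a2 and Col3a1 stayed under 1 CPM in each library, and none of the markers had 0 counts in both. The part of such cells in the differences between A and B given below was not tested. In bulk RNA, fewer cells of a type and less RNA per cell cannot be told apart. Dgcr8 itself had 1253 counts in A and 1942 in B, and counts per gene do not show which of its exons were read, so they do not check the genotype.

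Nearly all members were expressed. Of the 44, 43 reached 1 CPM in both libraries, where 55.6% of all protein-coding genes and 56.4% of all genes with a count did. The exception was Cbx8. The median level of the members was 85.3 CPM, against 26.7 CPM for the 13372 genes that reached 1 CPM in each library. Levels of different genes are compared below as RPKM, the CPM per 1000 bases of a gene's annotated exons. On that scale the members' median was 10.4, against 6.55 for the expressed genes with a length, and 30 members lay above that value. A value with ± gives the mean and the SD of A and B (n = 2). No test was run for the order of levels, since the smallest p that an exact test over 2 libraries allows is 0.5, and neighbours in an order are called separate only where their ranges over A and B do not overlap.

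**Figure D1:**
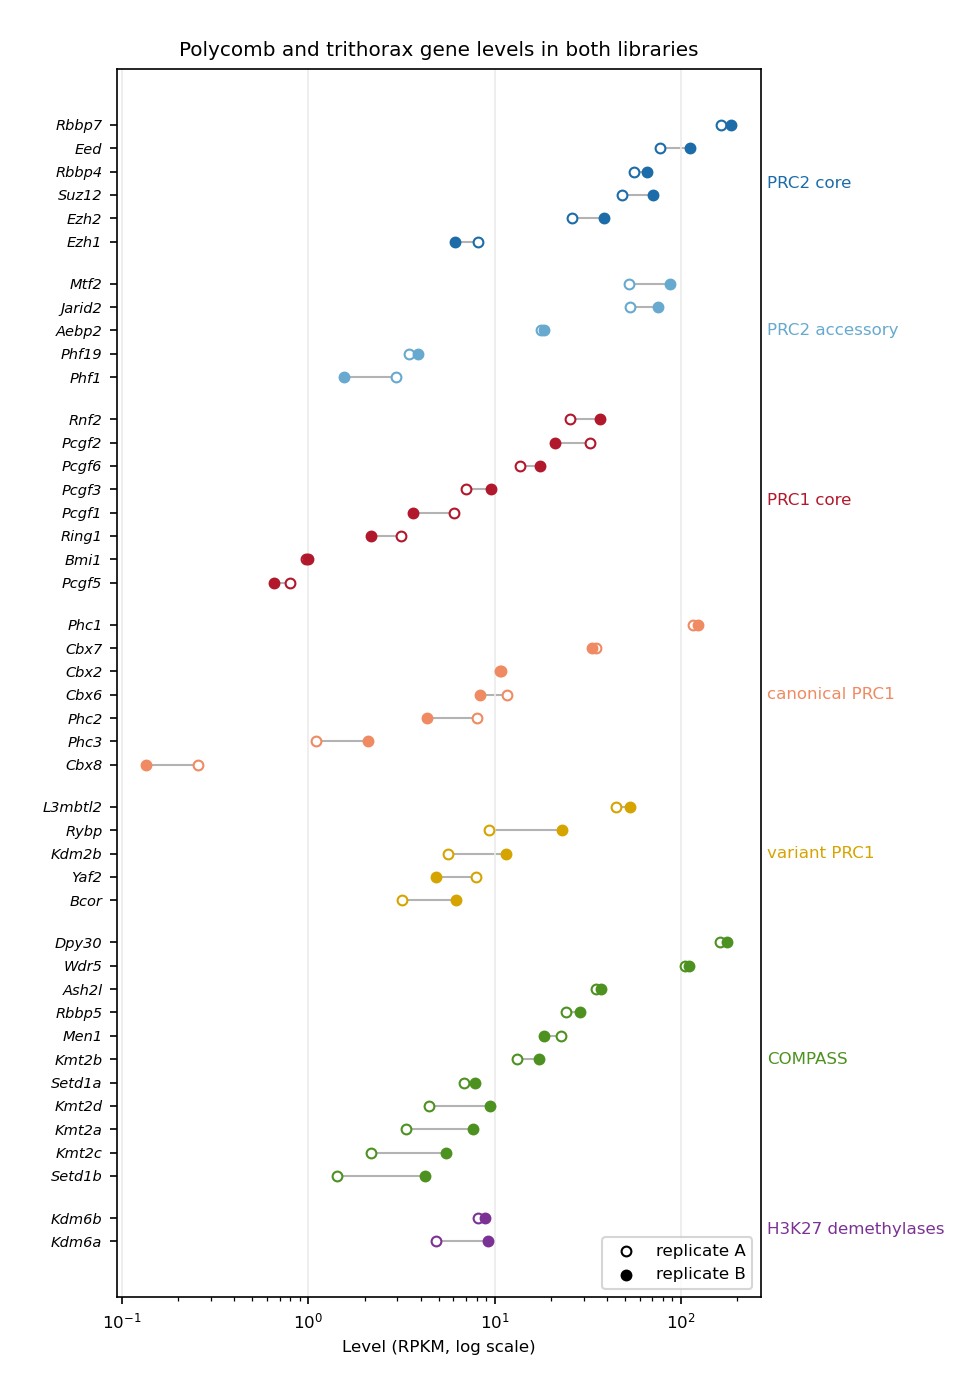
Level in RPKM (horizontal axis, log scale) of the 44 genes, grouped by complex and ordered within each by mean level, with an open point for replicate A and a filled point for replicate B. Rbbp7 lies highest, at 165 RPKM in A and 186 in B, and Cbx8 lowest, and the COMPASS methyltransferases lie below the subunits they share.

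In PRC2, the catalytic subunit was mainly Ezh2. Ezh2, the methyltransferase of dividing cells, reached 26.2 RPKM in A and 38.4 in B (32.3 ± 8.65). Ezh1, its less active paralog that prevails in resting cells, lay at 8.10 RPKM in A and 6.14 in B (7.12 ± 1.38). The ranges did not overlap, and Ezh2 held 81.3% ± 6.97 of the pair's summed RPKM. The ratio of Ezh2 to Ezh1 was 3.23 in A (95% exact binomial interval 3.06 to 3.42) and 6.25 in B (5.91 to 6.63), so it differed between the libraries beyond counting error. Such intervals cover counting error only.

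The stretch of 250 bases before the RefSeq start of each of these paralogs (GRCm38.p6) is shown to set a high and a low paralog side by side. CG dinucleotides are the letters that CXXC-domain proteins such as Kdm2b recognise when unmethylated. Capitals mark each CG. Ezh2 lies on the minus strand with this stretch at chr6:47595031-47595280, and Ezh1 on the minus strand at chr11:101226464-101226713.
Ezh2: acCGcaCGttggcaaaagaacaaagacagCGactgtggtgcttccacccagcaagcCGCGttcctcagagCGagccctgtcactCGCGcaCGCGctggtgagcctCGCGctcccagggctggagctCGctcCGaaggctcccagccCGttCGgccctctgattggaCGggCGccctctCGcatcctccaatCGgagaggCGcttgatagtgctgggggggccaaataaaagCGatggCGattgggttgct
Ezh1: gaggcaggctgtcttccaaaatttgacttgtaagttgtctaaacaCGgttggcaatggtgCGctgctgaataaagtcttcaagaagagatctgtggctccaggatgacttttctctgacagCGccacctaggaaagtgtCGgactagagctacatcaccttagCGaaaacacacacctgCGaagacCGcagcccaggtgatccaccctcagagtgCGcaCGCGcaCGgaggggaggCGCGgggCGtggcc
The stretch held 23 CG in Ezh2 and 14 in Ezh1. The RefSeq start of Ezh2 lies 311 bases from the start of the gene in GENCODE.

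The scaffold subunits Eed and Suz12, both needed for a stable PRC2, lay above the methyltransferases in RPKM. Eed, which reads the complex's own mark, reached 77.1 RPKM in A and 112 in B (94.7 ± 24.8). Suz12, which holds the core together, reached 48.4 and 70.7 (59.6 ± 15.8). Each was above Ezh2 in both libraries, and the summed level of Ezh1 and Ezh2 was 34.3 RPKM in A and 44.5 in B. For Suz12 this order depends on the length used. Ezh2 has 6678 exon bases but a longest transcript of 2787, and Suz12 has 4945 and 4373. With the longest transcript as length, Suz12 would lie below Ezh2. By CPM, Suz12 (239 in A, 350 in B) lay above Ezh2 (175 and 256). The histone-binding subunits Rbbp7 and Rbbp4 also serve in histone deacetylase and chromatin assembly complexes. Rbbp7 had the highest RPKM of all 44 genes, 165 in A and 186 in B (176 ± 15.1), and Rbbp4 lay at 55.9 and 65.9 (60.9 ± 7.04). By CPM, Phc1 (615 in A, 656 in B), Jarid2 (515 and 735) and Rbbp4 (489 and 576) lay above Rbbp7 (479 and 542). Rbbp7 took 74.7% of the pair's summed RPKM in A and 73.9% in B. This lead rests on exon length, which is 2909 bases for Rbbp7 and 8744 for Rbbp4: counted without length, Rbbp7 held 49.0% of the pair. A pseudogene of Rbbp7 with 97.1% identity over 942 bases, Gm6382, held 222 and 290 counts, against 13363 and 16428 for the gene.

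Accessory subunits direct PRC2 to chromatin. They define PRC2.1, with a Polycomb-like protein, and PRC2.2, with Jarid2 and Aebp2. Mtf2, the Polycomb-like protein that binds unmethylated CpG-rich DNA, reached 52.4 RPKM in A and 87.3 in B (69.9 ± 24.7). Its paralogs Phf19 (3.47 in A, 3.89 in B) and Phf1 (2.95 in A, 1.56 in B) were far lower, so that Mtf2 held 89.1% of the set's summed RPKM in A and 94.1% in B. The ranges of all 3 were separate. Of the exon bases of Phf1, 39.3% overlap those of Cuta on the opposite strand, which had 1148 counts in A and 626 in B, so the level of Phf1 is uncertain.

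Both PRC2.2 subunits were present beside this. Jarid2, a catalytically inactive demethylase homologue that helps recruit PRC2, reached 53.0 RPKM in A and 75.7 in B (64.3 ± 16.1), a range that overlapped that of Mtf2. Aebp2, a zinc finger protein that binds the core, lay at 17.7 and 18.4 (18.1 ± 0.526).

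In PRC1, the ubiquitin ligase was mainly Rnf2, which encodes RING1B. Rnf2 reached 25.2 RPKM in A and 36.5 in B (30.9 ± 7.98). Ring1, which encodes the paralog RING1A, lay at 3.15 and 2.16 (2.65 ± 0.705). Rnf2 held 88.9% of the pair's summed RPKM in A and 94.4% in B, with ranges that did not overlap. The ratio of Rnf2 to Ring1 was 8.0 in A (7.08 to 9.07) and 16.9 in B (14.8 to 19.5).

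A PCGF protein joins the ligase in every PRC1 and sets the type of the complex. Pcgf2, which encodes MEL18 of canonical PRC1, led the 6 genes at 32.5 RPKM in A and 21.1 in B (26.8 ± 8.08), and Bmi1, its closest paralog in canonical PRC1, lay at 0.966 and 0.996. Pcgf2 was therefore 33.6 times Bmi1 in A (27.7 to 41.2) and 21.2 times in B (17.6 to 25.6). A processed copy of Bmi1, Gm5946, matches 2658 bases at 97.0% identity and had 2 counts in each library, and the treatment of reads that fit both is not known here. Pcgf1, described next, has a copy, Gm8930, with 97.5% identity over 764 bases.

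The other PCGF genes belong to variant PRC1, which lacks CBX and PHC proteins. Pcgf6, of the PRC1.6 complex that silences germline genes, reached 13.6 RPKM in A and 17.6 in B. Pcgf3 lay at 7.01 and 9.51, and Pcgf1, of the PRC1.1 complex with Kdm2b and Bcor, at 6.03 and 3.62. Pcgf5, the near paralog of Pcgf3, was lowest by RPKM at 0.793 and 0.655. By RPKM, the 6 ranges were separate in the order Pcgf2, Pcgf6, Pcgf3, Pcgf1, Bmi1 and Pcgf5. This order depends on the length used, which is 12629 exon bases for Pcgf5 and 3974 for Bmi1. By CPM, Pcgf5 (10.01 in A, 8.28 in B) lay above Bmi1 (3.84 and 3.96) and also above Pcgf1 (9.94 and 5.97). With the longest transcript as length, Bmi1 would lie below Pcgf5 too. The share of Pcgf2 in the summed RPKM was 53.3% in A and 39.4% in B, and that of Pcgf6 was 22.4% and 32.9%.

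In canonical PRC1, a CBX protein reads the PRC2 mark and a PHC protein links complexes into larger assemblies. Cbx7, known as the main CBX gene of ES cells, led at 35.0 RPKM in A and 33.5 in B (34.3 ± 1.11), which was 62.2% ± 1.97 of the set. Cbx2, whose protein compacts nucleosomes, lay at 10.7 and 10.8, and Cbx6 at 11.7 and 8.31, and their ranges overlapped. Cbx8 had 26 counts in A and 15 in B, or 0.933 CPM (95% Poisson interval 0.609 to 1.37) and 0.495 CPM (0.277 to 0.816), so the Cbx7 level was 138 times that of Cbx8 in A (94.1 to 212) and 249 times in B (151 to 445). Of the exon bases of Cbx7, 1.54% overlap Apobec3 on the opposite strand.

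Of the PHC genes, nearly all of the level was Phc1. It reached 116 RPKM in A and 124 in B (120 ± 5.47), the third of the 44 genes by mean level. Phc2 lay at 8.06 and 4.31 and Phc3 at 1.10 and 2.08, so Phc1 held 92.7% of the set in A and 95.1% in B.

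Upstream stretches of 4 PRC1 genes are shown with each CG in capitals, as they set high beside low members: Rnf2 (chr1:151500992-151501241) and Ring1 (chr17:34024681-34024930), the high and the low ligase gene, Phc1 (chr6:122340228-122340477), the highest PRC1 gene, and Cbx8 (chr11:119040914-119041163), the lowest of all members. All lie on the minus strand.
Rnf2: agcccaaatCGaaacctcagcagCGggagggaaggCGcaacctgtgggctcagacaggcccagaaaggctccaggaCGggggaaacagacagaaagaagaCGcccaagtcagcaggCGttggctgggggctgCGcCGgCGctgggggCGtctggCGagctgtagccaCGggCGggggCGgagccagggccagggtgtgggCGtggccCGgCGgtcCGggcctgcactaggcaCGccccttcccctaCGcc
Ring1: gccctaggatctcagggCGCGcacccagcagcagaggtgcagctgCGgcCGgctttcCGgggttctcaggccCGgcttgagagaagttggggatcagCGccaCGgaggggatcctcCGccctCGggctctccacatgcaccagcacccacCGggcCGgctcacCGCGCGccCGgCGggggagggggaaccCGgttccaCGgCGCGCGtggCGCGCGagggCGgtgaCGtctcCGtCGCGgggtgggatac
Phc1: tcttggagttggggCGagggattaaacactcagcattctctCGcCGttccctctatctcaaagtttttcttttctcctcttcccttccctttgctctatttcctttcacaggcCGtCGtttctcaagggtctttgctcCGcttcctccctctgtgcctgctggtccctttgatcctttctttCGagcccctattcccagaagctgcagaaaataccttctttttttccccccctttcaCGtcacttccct
Cbx8: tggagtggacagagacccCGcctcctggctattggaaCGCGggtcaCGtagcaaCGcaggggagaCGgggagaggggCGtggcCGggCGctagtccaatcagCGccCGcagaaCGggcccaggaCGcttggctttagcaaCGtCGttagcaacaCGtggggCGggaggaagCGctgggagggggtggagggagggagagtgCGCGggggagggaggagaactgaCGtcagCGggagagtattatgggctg
Here the low members had more CG than the high ones, unlike in the Ezh pair: 30 in Ring1 against 20 in Rnf2, and 22 in Cbx8 against 8 in Phc1. The RefSeq start of Phc1 lies 334 bases from the GENCODE start. RefSeq promoter entries were matched by symbol for 36 of the 44 members. The others were Ash2l, Cbx2, Kdm6b, Kmt2b, Pcgf1, Rybp, Setd1b and Yaf2. The 36 stretches held a median of 20.5 CG, from 1 in Aebp2 and Dpy30 to 48 in Kmt2c, against a median of 16 over the 9705 expressed genes with an entry and 6 over all 27025 genes with an entry. Searched on both strands, the GC box letters GGGCGG, read by Sp factors, were in 25 of the 36 stretches (69.4%) and in 33.0% of all stretches of that length, and CCAAT was in 11 (30.6%) against 34.3%. The TATA letters TATAAA were in 0 of 36 and in 12.9% of all. The ETS letters CCGGAAGT were also in 0 (2.94% of all), and the NRF1 letters GCATGCGC and the YY1 letters AAGATGGC in 1 each (2.33% and 1.57% of all). A match describes letters only, and its absence says nothing of the factor. At least 10 CG were in 86.1% of the member stretches, 76.2% of those of expressed genes and 38.3% of all. The motifs were not counted over expressed genes alone, so their shares cannot be read as particular to the members. The stretches printed and the motifs searched were chosen after the levels were seen.

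Variant PRC1 carries Rybp or Yaf2 in place of a CBX protein. Rybp, which stimulates the ligase, was at 9.29 RPKM in A and 22.9 in B (16.1 ± 9.59), and Yaf2 at 7.95 and 4.86 (6.40 ± 2.19). The ranges did not overlap, but the balance differed widely between the libraries: Rybp held 53.9% of the pair in A and 82.5% in B, a ratio of 1.17 (1.05 to 1.31) and 4.70 (4.16 to 5.34). Rybp shares 681 bases at 99.3% identity with the pseudogene Rybp-ps, which had 110 and 201 counts, against 1228 and 3286 for Rybp. Among partners, L3mbtl2, an MBT protein of PRC1.6, was high at 44.6 RPKM in A and 53.1 in B. Kdm2b, which brings PRC1.1 to CpG islands, lay at 5.64 and 11.5, and Bcor, the PRC1.1 corepressor, at 3.19 and 6.23. Kdm2b matches 615 bases of the pseudogene Gm12397 at 100% identity, which had 236 and 414 counts, against 1708 and 3791 for Kdm2b.

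**Figure D2:**
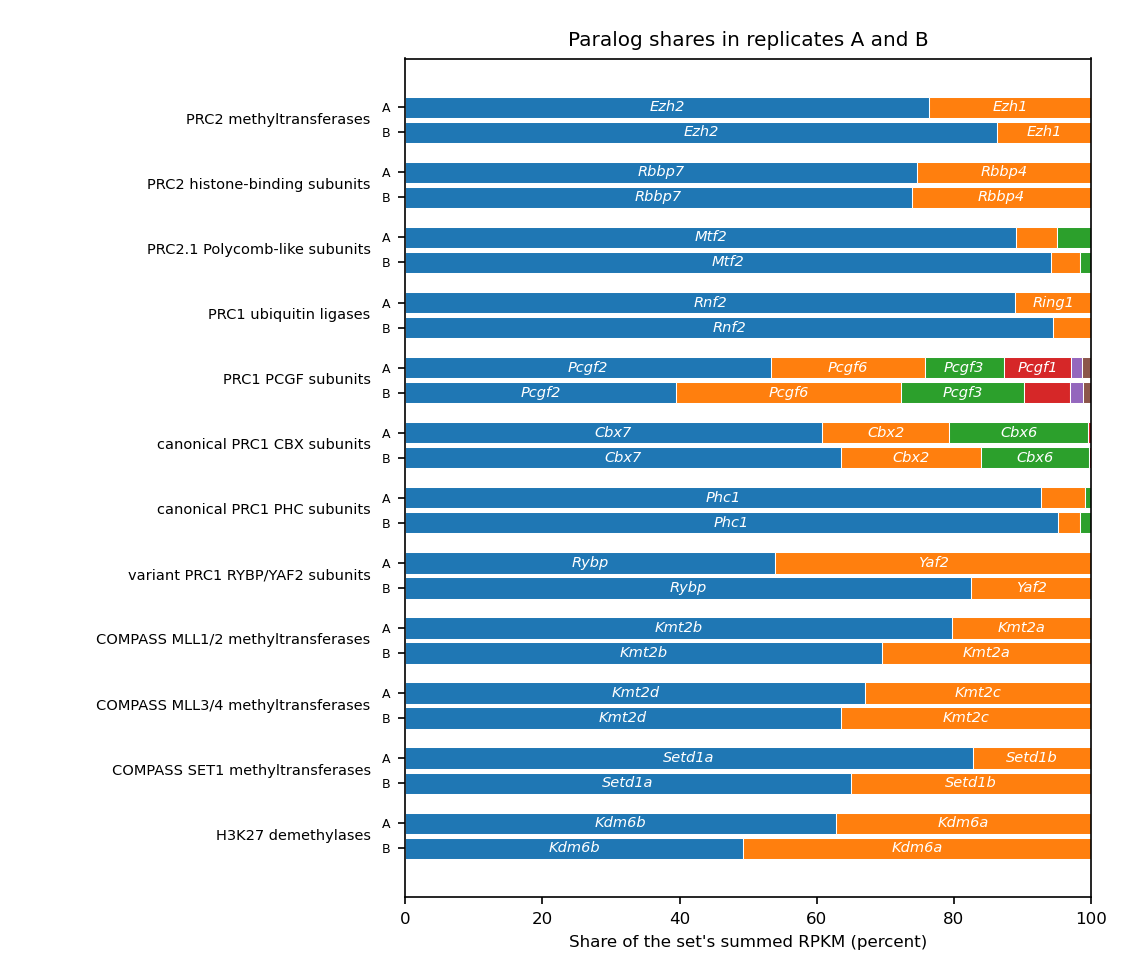
Share of each gene in the summed RPKM of its paralog set (horizontal axis, percent) in replicates A and B, for 12 sets. Genes stack from left to right by mean share, unlabelled slices being Phf19 and Phf1, Ring1 in B, Pcgf1 in B with Bmi1 and Pcgf5, Cbx8, and Phc2 with Phc3. Ezh2, Mtf2, Rnf2 and Phc1 take over 75% in both libraries, and the share of Rybp goes from 53.9% in A to 82.5% in B, that of Setd1a from 82.8% to 65.0%.

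COMPASS is built on a core of Wdr5, Ash2l, Rbbp5 and Dpy30 that all its methyltransferases share. The core genes were high. Dpy30 reached 161 RPKM in A and 177 in B (169 ± 11.4), Wdr5, which docks the methyltransferases, 105 and 110 (107 ± 3.96). Ash2l lay at 34.9 and 37.3 (36.1 ± 1.72) and Rbbp5 at 24.0 and 28.8 (26.4 ± 3.39). Their coefficients of variation lay between 3.69% and 12.8%, and the 4 ranges were separate. Men1, the menin subunit of the Kmt2a and Kmt2b complexes, lay at 22.8 in A and 18.5 in B (20.6 ± 3.09).

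By RPKM, the 6 methyltransferase genes were lower than every core gene in both libraries. This order depends on the length used. By CPM, Kmt2b (127 in A, 167 in B) lay above the core gene Rbbp5 (94.4 and 113). In B, Kmt2a (127 CPM) and Kmt2d (189) lay above Rbbp5 too. Kmt2b, which places the lysine 4 mark at bivalent promoters in ES cells, was the highest at 13.2 RPKM in A and 17.4 in B (15.3 ± 2.92), and its paralog Kmt2a (MLL1) lay at 3.36 and 7.62. Kmt2b held 79.8% of that pair in A and 69.5% in B. Kmt2d (MLL4), an enhancer methyltransferase, lay at 4.43 and 9.48 and its partner Kmt2c (MLL3) at 2.17 and 5.46, with ranges that overlapped, although within each library Kmt2d was the higher, 2.04 times Kmt2c in A (1.90 to 2.19) and 1.74 times in B (1.66 to 1.81). Of the SET1 genes, which account for most bulk trimethylation of lysine 4, Setd1a lay at 6.87 and 7.83 and Setd1b at 1.43 and 4.22. Setd1a was 4.80 times Setd1b in A (4.32 to 5.34) and 1.86 times in B (1.73 to 1.99). Of the annotated exon bases of Setd1a, 51.8% also belong to Gm49388, a gene model on the same strand that had no row among the deposited counts.

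The H3K27 demethylases had no steady order. Kdm6b (JMJD3) lay at 8.16 RPKM in A and 8.91 in B (8.54 ± 0.536), and the X-linked Kdm6a (UTX), which is also a subunit of the Kmt2c and Kmt2d complexes, at 4.82 and 9.17 (7.00 ± 3.08). The ranges overlapped. Kdm6b was 1.69 times Kdm6a in A (1.57 to 1.83) and 0.972 times in B (0.914 to 1.03), an interval that includes equal levels.

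Of the 12 paralog sets, 10 had a leading gene whose range was separate from the next, the exceptions being Kmt2d with Kmt2c and Kdm6b with Kdm6a. Other lengths were tried on the mean share of both libraries. With the longest transcript as length the leading gene was the same in 11 of 12 sets. It was the same in 11 with the median length of the coding transcripts, and in 11 without length. The set that changed was the H3K27 demethylases under both other lengths and the Rbbp pair without length.

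The libraries were compared gene by gene to measure the error of these levels. An exact binomial test on both counts, given library sizes scaled by the TMM method and with p-values adjusted by the Benjamini-Hochberg method over all 14583 genes that reached 1 CPM in A or in B, called 76.8% of all genes different at an adjusted p under 0.05. This test compares these libraries, not conditions. Of the 43 members tested, 39 (90.7%) were called, beside that background of 76.8%, and the members lay at higher counts than the typical gene. The members were higher in B in 30 cases (69.8%), against 38.4% of all tested genes, and higher in A in 9, against 38.4%. The median log2 ratio of B over A was 0.28 for the members and -0.01 for all tested genes. Ratios and folds between libraries were computed from TMM-scaled CPM with 0.5 added, which understates those of low genes. Those not called were Bmi1, Pcgf5, Cbx2 and Cbx7. The median coefficient of variation over both libraries was 24.4% for the members, against 21.5% for the expressed genes.

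The COMPASS methyltransferases were all called higher in B, as were 38.4% of all tested genes, and 4 of the 6 at least 2-fold, as were 6.57%. These 4 also fall in the highest of 10 bins of protein-coding genes by exon length, where the median log2 ratio was 0.51. The part of length in their ratios was not tested here. Setd1b was 3.08-fold higher in B (17.3 CPM in A, 50.9 in B; adjusted p = 1.3e-123 by the exact binomial test), Kmt2c 2.66-fold, Kmt2a 2.41-fold and Kmt2d 2.27-fold. Kmt2b and Setd1a were 1.4-fold and 1.21-fold higher. The shared core moved less, with Rbbp5 1.28-fold, Dpy30 1.17-fold, Ash2l 1.14-fold and Wdr5 1.12-fold higher in B, and Men1 was 1.16-fold higher in A.

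Of the 5 variant PRC1 genes, 4 were called higher in B, against 38.4% of all tested genes. Rybp was 2.60-fold higher in B, Kdm2b 2.17-fold, Bcor 2.06-fold and L3mbtl2 1.27-fold, whereas Yaf2 was 1.51-fold higher in A. In PRC2, Mtf2 was 1.78-fold, Ezh2, Suz12 and Eed 1.56-fold, 1.56-fold and 1.55-fold, and Jarid2 1.52-fold higher in B. Rbbp4, Rbbp7, Phf19 and Aebp2 were 1.26-fold, 1.2-fold, 1.19-fold and 1.11-fold higher in B, whereas Ezh1 and Phf1 were 1.23-fold and 1.71-fold higher in A. The core and canonical PRC1 genes were mixed. Rnf2, Pcgf3, Pcgf6, Phc1 and Phc3 were higher in B, from 1.14-fold for Phc1 to 2.0-fold for Phc3, and Ring1, Pcgf1, Pcgf2, Cbx6 and Phc2 higher in A, from 1.32-fold for Cbx6 to 1.74-fold for Phc2. Kdm6a was 2.02-fold and Kdm6b 1.16-fold higher in B.

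**Figure D3:**
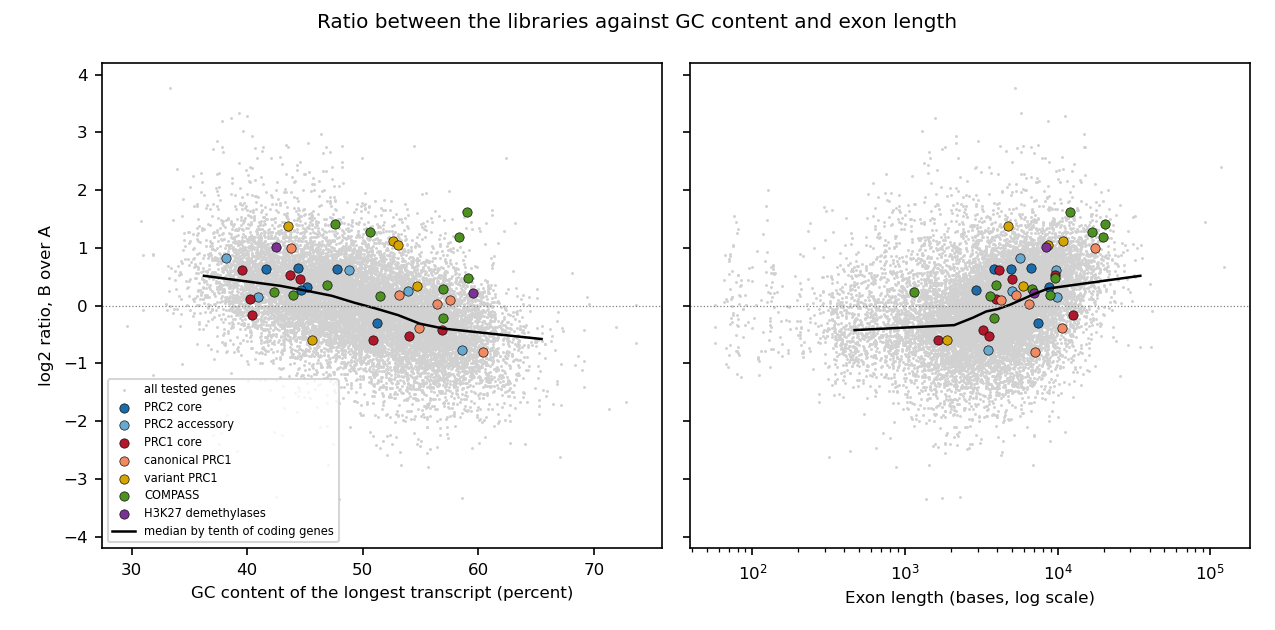
Log2 ratio of B over A (vertical axis) against the GC content of the longest transcript (left, percent) and exon length (right, bases, log scale) for all tested genes in grey and the 43 tested members in colour by complex, with a black line through the medians of protein-coding genes in 10 bins. The line falls with GC content and rises with length, and Setd1b and Kmt2d lie above it at high GC content.

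GC content and exon length moved with these ratios. Over protein-coding genes the median log2 ratio of B over A was 0.52 in the lowest of 10 bins by GC content and -0.58 in the highest, and it was -0.43 in the lowest of 10 bins by exon length and 0.51 in the highest. Across the 43 tested members the ratio had a Pearson r of -0.23 with GC content and 0.54 with log2 exon length. Over the 14509 tested genes with annotation these were -0.48 and 0.26. In both cases the points share both libraries and are not replicates. In 6 of the 8 sets of 2 genes the gene of lower GC content gained share in B, the others being the Rbbp pair and the SET1 pair. These sets are few, and their genes differ in exon length too. A relation of the paralog balances to GC content was not tested, and no such share was computed over other gene pairs.

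A smooth fit on GC content and exon length over all tested genes was then subtracted. Before it, 19 members lay at least 1.5-fold apart between the libraries (37.9% of all tested genes did), 15 of them higher in B, and after it 10 (27.3% of all), 8 of them higher in B. Those 8 were Setd1b, Kmt2d, Kmt2a, Kmt2c, Kmt2b, Rybp, Bcor and Kdm2b, and Pcgf5 and Yaf2 were higher in A. Pcgf5 was not called by the binomial test, and its log2 ratio was -0.17 before correction and -0.94 after. The corrected ratios were not themselves tested. The corrected log2 ratio was 1.76 for Setd1b, 1.13 for Kmt2d and 1.07 for Rybp. Of the 39 called members 34 kept their direction, and Rbbp4, Aebp2, Pcgf3, Ash2l and Men1 did not. The change in the Ezh2 to Ezh1 ratio from A to B was 0.95 on the log2 scale and 0.66 after correction, that of Rnf2 to Ring1 1.05 and 0.19, and that of Rybp to Yaf2 1.97 and 1.75. For Setd1a to Setd1b it was -1.35 and -1.24, and for Kdm6b to Kdm6a -0.79 and 0.10, so that the latter reversed.

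**Figure D4:**
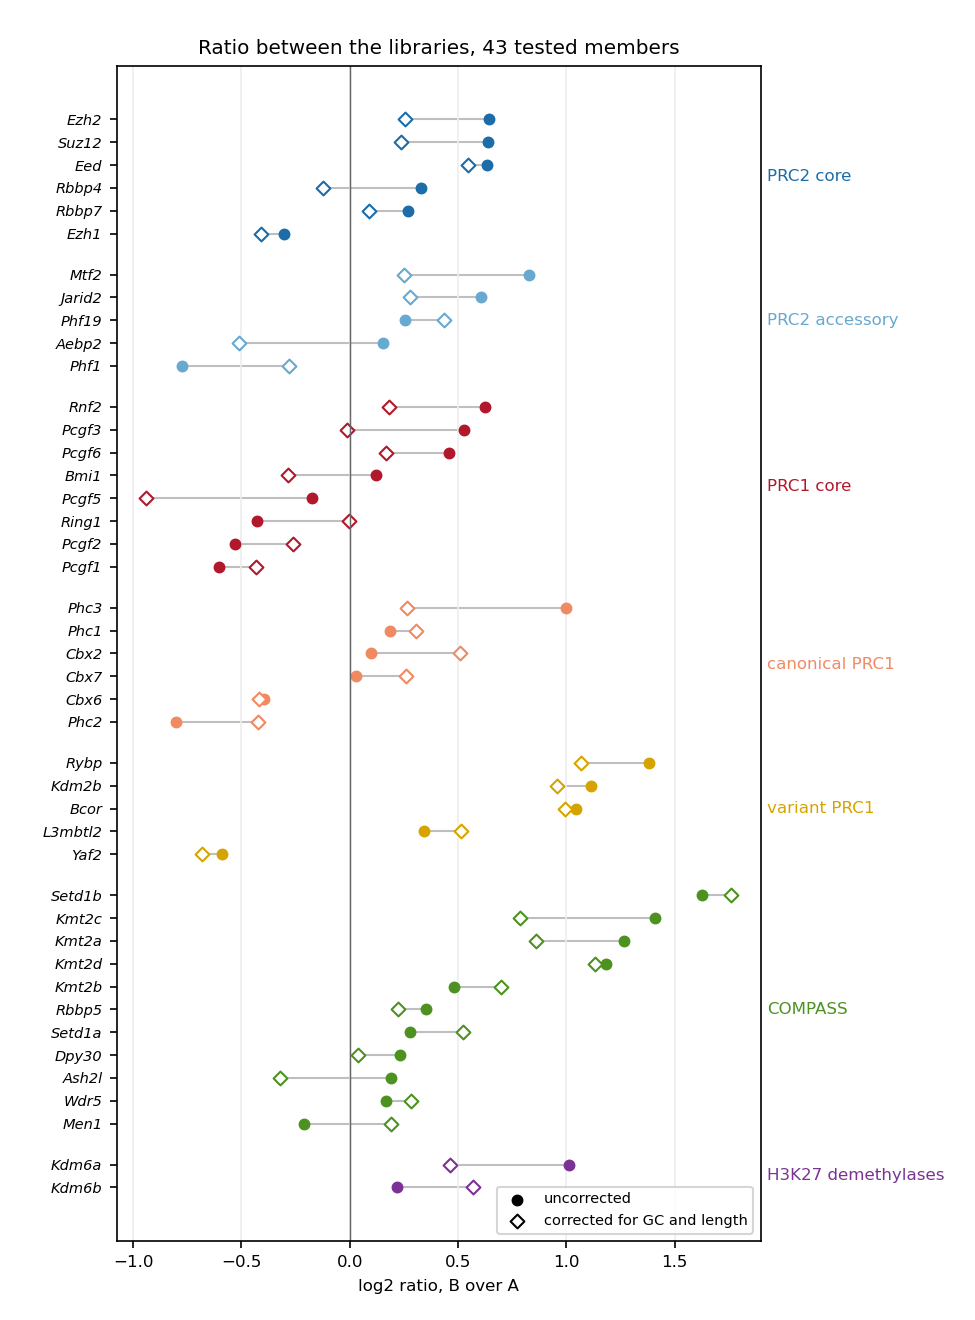
Log2 ratio of B over A (horizontal axis) of the 43 tested members by complex, uncorrected (filled circles) and after correction for GC content and exon length (open diamonds). The COMPASS methyltransferases and the variant PRC1 genes other than Yaf2 lie right of 0 by both, and Ezh2, Suz12 and Mtf2 move towards 0.

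Most partner genes outside the 44 were expressed too. Of 20 partners of PRC1, 19 reached 1 CPM in both libraries (8 called higher in B and 10 higher in A, where 38.4% of all tested genes were called in each direction), led by the deubiquitinase gene Usp7 (438 CPM in A, 595 in B), Skp1a (454 and 358), a subunit of PRC1.1, and Mga (91.2 and 290), the DNA-binding subunit of PRC1.6. The PRC2 partner Epop, which links PRC2 to elongin, lay at 216 CPM in A and 186 in B, called higher in A, and Lcor at 2.15 and 14.2, called higher in B. Of the 10 genes of H2A deubiquitinase complexes, which remove the PRC1 mark, 9 reached 1 CPM in both, and 8 were higher in B and 1 in A. Asxl1 lay at 172 and 230 CPM, Ogt at 153 and 236 and Bap1, the catalytic subunit, at 115 and 120.

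All 11 COMPASS partners reached 1 CPM in both. By the same test 7 were called higher in B and 2 in A, where 38.4% of all tested genes were called in each direction. Hcfc1 lay at 320 CPM in A and 517 in B, Psip1 at 274 and 379 and Wdr82, of the SET1 complexes, at 251 and 302. All 5 other trithorax and H3K36 methyltransferases were called higher in B, against the 38.4% of all tested genes. All 5 also fall in the highest of the 10 bins by exon length, where the median log2 ratio was 0.51. Nsd1 lay at 250 and 420 CPM, Setd2 at 108 and 195 and Nsd2 at 36.7 and 39.6. Of the 6 H3K4 demethylases, which oppose COMPASS, 5 reached 1 CPM in both. Of these 5, 4 were called higher in B, against 38.4% of all tested genes, and Kdm1a was not called. Kdm5b lay at 544 CPM in A and 594 in B, Kdm1a at 357 and 342 and Kdm5c at 140 and 206. The Y-linked Kdm5d had 6 and 3 counts, whereas Uty, a Y-linked gene among the COMPASS partners, had 402 in A and 1090 in B.

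A list of 20 developmental genes held those whose promoters are known to carry both the Polycomb and the COMPASS mark in ES cells. Only 4 of them lay at 1 CPM or above in A and in B, where 55.6% of all protein-coding genes did. The median over all 20 was 0.246 CPM. Pax6 lay at 2.15 CPM in A and 1.71 in B. Pax3 had 2 counts in A and 0 in B, and Pax7 15 and 22. Of the 6 tested, 1 was called higher in B and 2 higher in A, where 38.4% of all tested genes were called in each direction.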

How the data were processed

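Polyadenylated RNA of 2 Dgcr8 knockout ES cell libraries was measured. The authors deposited raw counts for each Ensembl gene, without normalization. The tools were STAR 2.4.2a and featureCounts 1.4.5-p1 with build mm10, per the submitters' processing notes. The sources used here state neither the annotation release, nor the strand setting of the counting, nor what was done with multi-mapped reads.

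Symbols, exon lengths (union of annotated exons) and GC content came from GENCODE M21 on GRCm38, which matched 42548 of 43629 identifiers. CPM and RPKM were computed on library totals of 27872396 (A) and 30327146 (B) counts. Poisson and binomial intervals are exact at 95% and cover counting error only, since reads are not independent molecules. A and B were compared by an exact two-sided binomial test with TMM-scaled library sizes (edgeR 4.0.16, R 4.3.3) and Benjamini-Hochberg adjustment over all genes that reached 1 CPM in A or in B. TMM factors (1.03 for A, 0.968 for B) were computed over these tested genes. They were first computed over all gene rows, and the change was made after the results of both were seen. The biological coefficient of variation by edgeR's common dispersion was 0.359. The GC and length correction was a spline fit over 14509 genes. The test and the correction were tested on simulated data. Copies were sought with blastn 2.17.0 among pseudogene transcripts at 90% identity over at least 300 bases.

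The members and lists were chosen with earlier results of these data known. All members are named, with the 3 highest genes of each partner list and up to 2 under 1 CPM in both libraries. Gata4 and Uty are named as well, which was decided after their values were seen. Ezhip was not analysed here. Some genes that this rule takes are not reported here. As alternatives, scaling by library totals or by DESeq2 1.42.0, other lengths, other filters and each library alone were tried. The corrected paralog ratios and TMM over all rows were added after the data were seen.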

Additional observations from a re-analysis of the deposited data

How the results depend on the processing

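No paired analysis was possible because the series holds 1 group. Shares below are of a set's summed level, as the mean of both libraries. With the longest transcript as length, shares moved beyond the SD between libraries for Rbbp7 (66.6%), Cbx7 (58.9%), Phc1 (91.7%) and Kmt2d (58.3%), and Kdm6b held 48.7%, behind Kdm6a. With the median length of coding transcripts the moved shares were Rbbp7 61.7%, Mtf2 97.5%, Rnf2 96.2%, Cbx7 83.0%, Phc1 77.1%, Kmt2d 53.5%, Setd1a 92.6% and Kdm6b 34.2%, and without length Rbbp7 49.0%, Pcgf2 34.6%, Cbx7 59.5%, Phc1 89.9% and Kmt2b 63.1%. Without replicate A the share of Kdm6b was 49.3%, and without replicate B 62.8%. With exon length, the leading gene of the other 11 sets was the same in each library alone. The other lengths were tried on mean shares only. In B alone Pcgf2 (74.3 CPM) lay below Pcgf3 (90.8) and Pcgf6 (88.4) without length. With the longest transcript as length it would lie below Pcgf6 there.

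Of 39 members called, 19 also differed at least 1.5-fold. After correction for GC content and length, 10 in place of 19 members lay past 1.5-fold, and the log2 ratio of B over A reversed for Rbbp4 (-0.12), Aebp2 (-0.51), Pcgf3 (-0.013), Ash2l (-0.32) and Men1 (0.19). By this correction, which for paralog ratios was added after the data were seen, the change in log2 ratio from A to B reversed for Rbbp7 to Rbbp4 (0.21), Mtf2 to Phf19 (-0.18), Pcgf2 to Bmi1 (0.022), Pcgf2 to Pcgf5 (0.68), Phc1 to Phc3 (0.043), Kmt2d to Kmt2c (0.35) and Kdm6b to Kdm6a (0.10). With library totals 29 members were higher in B and 11 in A: Phf19 was no longer called, and Pcgf5 and Cbx7 were called higher in A. With DESeq2 size factors the counts were 30 and 9. TMM over all gene rows, the scaling first used, gave 11198 calls over all genes (5696 higher in B) in place of 11201 (5602 higher in B). It left 30 members higher in B and 9 in A, with 18 in place of 19 past 1.5-fold and 9 in place of 8 past 2-fold. Library totals gave 11282 calls (4851 higher in B) and 15 members past 1.5-fold. DESeq2 size factors over all gene rows came out as 1 for both libraries and were not used. At a minimum of 0.5 CPM, 7 in place of 4 bivalent developmental genes were detected. Depth limits Cbx8 most, at 26 and 15 counts.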
